A study of Mus musculus with 15 samples.

Results

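The genes described here are the enzymes that write and erase acetyl and methyl marks on histones and DNA in the mouse thalamus. They were chosen by symbol alone: the numbered Hdac, Kat, Kmt and Setd genes, Sirt1 to Sirt7, the Kdm genes from Kdm1 to Kdm8 without Kdm2b, the Dnmt1 and Dnmt3 genes, and Tet1 to Tet3. Of the 25080 symbols listed, 67 matched, and 63 of them reached at least 1 TPM (transcripts per 1e6, a per-length level) in at least 3 libraries and were tested among 13471 genes passing the same filter. Hdac7, Dnmt3b, Dnmt3l and the antisense transcript Dnmt3aos did not. Hdac7 was highest of these, at a mean of 0.591 TPM and at most 0.842 TPM in any library.

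The libraries came from whole, unsorted thalamus of male mice of 2 to 4 months. Control mice are named Maged1 WT in the titles, and the study's RNA methods also name them WT. Its animal methods and figure legend instead describe the controls as floxed (Maged1 Loxp), the animal methods as littermates of the Maged1 cKO mice. The Maged1 cKO mice carried the X-linked floxed allele together with Cre under the Vglut2 promoter, so that only cells with a history of Vglut2 expression, mostly glutamatergic neurons, were targeted. All were of C57Bl6J background. All mice were first given saline for 3 days, and 5 days of intraperitoneal injections followed, of either saline or 20 mg/kg cocaine. There were 4 libraries of control mice and 4 of cKO mice after saline, and 4 of control mice and 2 of cKO mice after cocaine; another cKO cocaine sample was not analysed here. In bulk tissue, fewer cells of a type and less RNA per cell cannot be told apart.

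Acetyltransferases add acetyl groups to histone lysines, which loosens the contact between histone and DNA and is found at active genes, and histone deacetylases and sirtuins remove them. Histone methyltransferases and demethylases set marks with different meanings: methylated H3K4 lies at active promoters and enhancers, and methylated H3K27 at genes silenced by the Polycomb complexes. DNA methyltransferases methylate cytosine in CpG pairs, and Tet dioxygenases oxidise that methyl group as a step towards its removal. Several of these enzymes, among them Hdac5 and the sirtuins, have been studied in the nucleus accumbens for their part in the response to cocaine.

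The label check came first. Maged1 lay between 149.9 and 167.2 scaled TPM in control saline and between 64.6 and 77.4 in cKO saline libraries. It went the other way after cocaine, with 58.5 to 87.7 for the control label (4 libraries) and 154 and 174 for the cKO label (2 libraries). In addition, the genotype tag of 4 saline libraries named the other genotype than the title. The Maged1 levels of these 4 went with the titles. They were 149.9 and 151.3 in control saline replicates 3 and 4, and 77.4 and 76.6 in cKO saline replicates 1 and 2. Statements on genotype below therefore follow the titles, and the leading comparison, the mean of the cocaine effects of both labelled genotypes, does not change if the genotype labels of whole groups are exchanged. Each effect within a labelled genotype, and the difference between the effects, turns on these labels. The treatment was also taken from the titles. The study's methods count more unsorted samples after cocaine than after saline, and the titles give the reverse. Every comparison of cocaine with saline turns on the treatment in the titles.

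The tissue label was checked with marker lists. The summed level of 5 thalamic glutamatergic genes (Slc17a6, Tcf7l2, Rora, Prkcd and Necab1) was 322 to 448 scaled TPM after saline and 418 to 578 after cocaine in control libraries, and 384 to 507 and 401 to 484 in cKO libraries. Only Tcf7l2 of the 5 was called higher over both genotypes (0.30), while Prkcd was at 0.74 in control and -0.14 in cKO and Rora at 0.23 and -0.48. Genes of neighbouring structures differed more between libraries. For 5 hypothalamic genes (Oxt, Avp, Trh, Gal and Pmch) the sum was 129 to 373 after saline and 2.53 to 100.2 after cocaine in control libraries, and 9.20 to 117 and 33.8 to 74.0 in cKO libraries. Of these 5, 4 were called lower in control, 0 were called in cKO, and 4 were called higher for the difference of the cocaine effects. Oxt, which encodes oxytocin, lay at 87.7 to 182 in control saline and at 0 to 0.233 in control cocaine. For 5 choroid plexus genes, led by Ttr, the sum was 13.6 to 1452 after saline and 4.08 to 21.3 after cocaine in control libraries, and 2.52 to 42.2 and 8.70 to 11.7 in cKO libraries. The part of such neighbouring tissue in the cocaine changes below was not tested.

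Most writers and erasers were expressed at low to moderate levels. The mean TPM of the 63 tested genes ran from 1.13 to 66.1, with a median of 8.51. TPM is a per-length scale, so levels can be compared between genes. Hdac11, the class IV deacetylase, was highest with 66.1 TPM, followed by Hdac5 with 52.0, the oligodendrocyte-rich tubulin deacetylase Sirt2 with 44.8 and the actin methyltransferase Setd3 with 42.5. The highest gene of each remaining class was Hdac2 among class I deacetylases (20.8 TPM), Kat5 among acetyltransferases (17.9), Kdm1a among demethylases (15.3), Dnmt3a among DNA methyltransferases (11.2) and Tet3 among Tet dioxygenases (6.36). Tet1 was near the low end at 2.05 TPM.

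After cocaine, 17 of the 63 genes were higher and 5 were lower than after saline over both labelled genotypes (limma, Benjamini-Hochberg adjusted p under 0.05 across all 13471 genes). That is 27.0% and 7.94% of the tested writers and erasers. Among all tested genes 17.8% were called higher and 15.3% lower. All of the changes were small: the median log2 fold change was 0.06 (all genes 0.01), the range was -0.20 to 0.40, and none reached 0.5. The Kmt2 and Setd1 family of histone methyltransferases held 5 of the increases and the acetyltransferases 4, and all 5 decreases were histone demethylases. All 6 cocaine libraries lay above all 8 saline libraries for Setd1b, Kdm6b, Hdac5 and Kmt2e, 4 of the 63 genes, and for 5.95% of all tested genes. No member had all cocaine libraries below all saline libraries, against 5.00% of all genes.

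These directions depend on the scaling between libraries. Scaled values were TPM divided by trimmed mean factors, which were 0.807 to 0.939 in the cocaine and 1.07 to 1.22 in the saline libraries. On the TPM as deposited the median gene was lower after cocaine by -0.34 on the log2 scale, and 0 members were called higher and 55 lower, where 0.891% and 79.1% of all genes were called. With library sums made equal over genes with long transcripts, an alternative chosen after seeing the data, 9 were higher and 8 lower, where 11.3% and 22.0% of all genes were called. Every change given below is relative to the bulk of the genes.

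**Figure D1:**
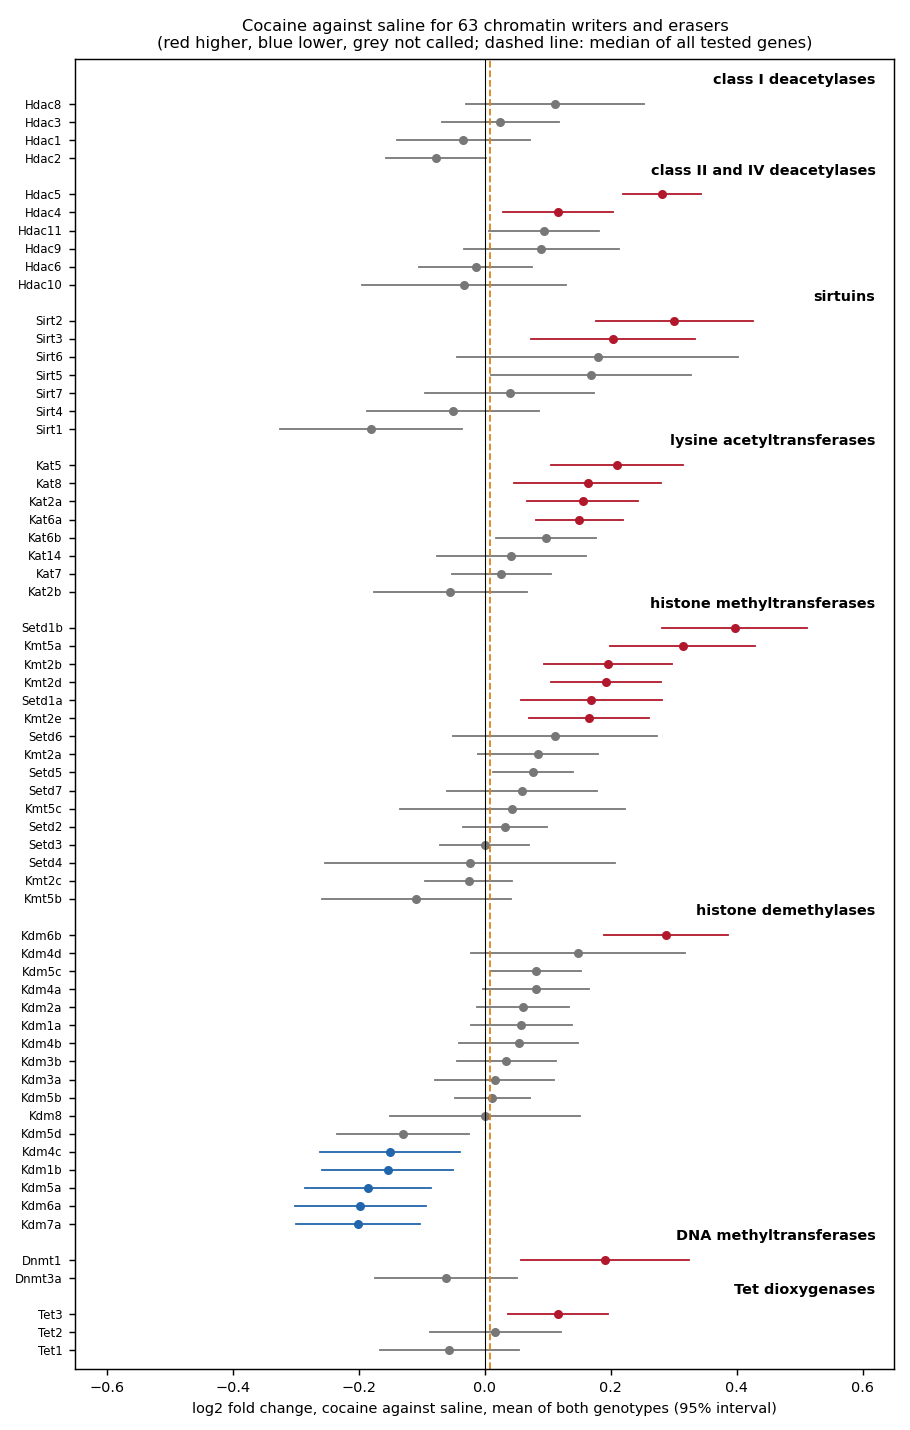
Log2 fold change of cocaine against saline, as the mean of both labelled genotypes, for the 63 tested genes grouped by enzyme class (points, with 95% intervals as lines). Red genes were called higher (17), blue genes lower (5) and grey genes were not called, and the dashed line is the median of all 13471 tested genes. All 5 blue points lie among the histone demethylases.

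To show what lies ahead of the genes that moved, 250 bases upstream of the annotated start are given for 4 of them: for each direction, those with the largest change among called genes that had a single promoter in the RefSeq table (GRCm38.p6) whose start matched an annotated transcript. Capitals mark CpG dinucleotides, the substrate of the DNA methyltransferases and Tet enzymes.
Sirt2 (chr7:28766502-28766751, plus strand): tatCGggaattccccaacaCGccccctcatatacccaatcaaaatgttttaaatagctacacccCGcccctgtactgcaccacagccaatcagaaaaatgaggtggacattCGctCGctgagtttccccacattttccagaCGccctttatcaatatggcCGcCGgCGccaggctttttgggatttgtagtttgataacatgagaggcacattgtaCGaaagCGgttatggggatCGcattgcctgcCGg
Kmt2d (chr15:98871206-98871455, minus strand): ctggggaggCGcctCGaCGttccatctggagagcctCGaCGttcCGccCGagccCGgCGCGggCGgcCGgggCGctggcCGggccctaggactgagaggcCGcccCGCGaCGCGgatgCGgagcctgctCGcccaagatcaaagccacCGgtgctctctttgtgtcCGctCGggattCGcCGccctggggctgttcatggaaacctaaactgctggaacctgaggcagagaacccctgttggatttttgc
Kdm7a (chr6:39206774-39207023, minus strand): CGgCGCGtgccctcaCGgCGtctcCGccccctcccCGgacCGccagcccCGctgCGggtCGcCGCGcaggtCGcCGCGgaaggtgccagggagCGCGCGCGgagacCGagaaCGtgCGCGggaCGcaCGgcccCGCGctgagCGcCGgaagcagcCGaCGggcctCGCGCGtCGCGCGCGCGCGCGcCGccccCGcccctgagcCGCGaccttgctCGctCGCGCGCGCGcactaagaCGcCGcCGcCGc
Kdm6a (chrX:18162325-18162574, plus strand): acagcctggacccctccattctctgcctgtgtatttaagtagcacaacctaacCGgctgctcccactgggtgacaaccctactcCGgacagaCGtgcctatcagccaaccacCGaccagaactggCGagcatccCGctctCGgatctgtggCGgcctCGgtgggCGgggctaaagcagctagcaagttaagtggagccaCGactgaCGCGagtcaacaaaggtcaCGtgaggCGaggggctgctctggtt
They hold 13 (Sirt2), 26 (Kmt2d), 56 (Kdm7a) and 15 (Kdm6a) CpG pairs. Sirt2 and Kmt2d were called higher and Kdm7a and Kdm6a lower, and all 4 held more CpG pairs than the median promoter. Across the 69 listed promoters of 51 tested members the median was 17 CpG in 250 bases, against 6 in all 32851 promoters of the table. Promoters of members called higher had a median of 16 CpG and those of members called lower 19.

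Histone methyltransferases were the class with the most increases by count, though not by share: of 8 acetyltransferases 4 were higher, with a median of 0.12. Of 16 histone methyltransferases tested, 6 were higher and 0 lower, with a median log2 fold change of 0.08. Among all genes 17.8% were higher and 15.3% lower, with a median of 0.01. Of the 7 genes of the Kmt2 and Setd1 family (Kmt2a to Kmt2e, Setd1a and Setd1b), which holds the main H3K4 methyltransferases, 5 were higher, with a median of 0.17, and the other two, Kmt2a and Kmt2c, were at 0.08 and -0.03. The family was grouped with earlier results of these data known. Setd7, which also methylates H3K4 and lies outside the family, was not called (0.06, 95% interval -0.06 to 0.18). In the labelled genotypes taken alone, 2 of the 7 were higher in control and 4 in cKO (all genes 14.2% and 10.2%). The cKO calls of Kmt2a and Kmt2b each held in 9 of 14 fits that each left out a single library.

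Setd1b (chr5:123142193-123168629, plus strand; gene positions are GENCODE M21 on GRCm38), the catalytic subunit of a complex that trimethylates H3K4 at promoters, had the largest change of all members. It was at 6.38, 6.69, 6.56 and 6.29 scaled TPM after saline and 8.09, 7.97, 7.88 and 9.90 after cocaine in control libraries, and 6.12, 6.62, 5.83 and 6.44 after saline and 8.30 and 9.00 after cocaine in cKO libraries. The lowest cocaine library exceeded the highest saline library in both genotypes. The log2 fold change was 0.40 (SE 0.053, adjusted p = 0.000154), an increase of 31.6%, with 0.35 in control and 0.44 in cKO.

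Kmt5a (chr5:124439930-124462308, plus strand), which places the single methyl group on H4K20, was called higher in the libraries labelled control and not in those labelled cKO. Its scaled TPM was 6.41, 6.34, 5.94 and 6.03 in control saline and 8.32, 8.74, 8.87 and 7.98 in control cocaine, against 6.27, 7.84, 6.40 and 7.17 and then 8.52 and 7.52 in the corresponding cKO libraries. The control groups did not overlap, while one cKO cocaine library lay below the highest cKO saline library. Over both genotypes the log2 fold change was 0.31 (SE 0.053, adjusted p = 0.000767). The control effect was 0.43 (adjusted p = 0.00104) and the cKO effect 0.20 (adjusted p = 0.103), and their difference was not called (-0.22, adjusted p = 0.289).

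The other 4 increases in the class were of similar size. Kmt2d, a major H3K4 monomethyltransferase of enhancers, lay between 14.7 and 16.7 scaled TPM in saline (median 15.4) and between 16.2 and 19.3 in cocaine libraries (median 17.3), with a log2 fold change of 0.19 (SE 0.041, adjusted p = 0.00317). Kmt2b rose by 0.20 (SE 0.047, adjusted p = 0.00685). Setd1a, the close relative of Setd1b, rose by 0.17 (SE 0.052, adjusted p = 0.0241). Kmt2e, which carries the SET domain of the family but is regarded as having no strong methyltransferase activity, lay between 10.5 and 13.3 in saline and 13.6 and 14.3 in cocaine libraries (log2 fold change 0.16, SE 0.044, adjusted p = 0.0122). Setd3 was flat, with group means of 41.9 to 42.2 and a 95% interval of -0.07 to 0.07 for its log2 fold change.

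**Figure D2:**
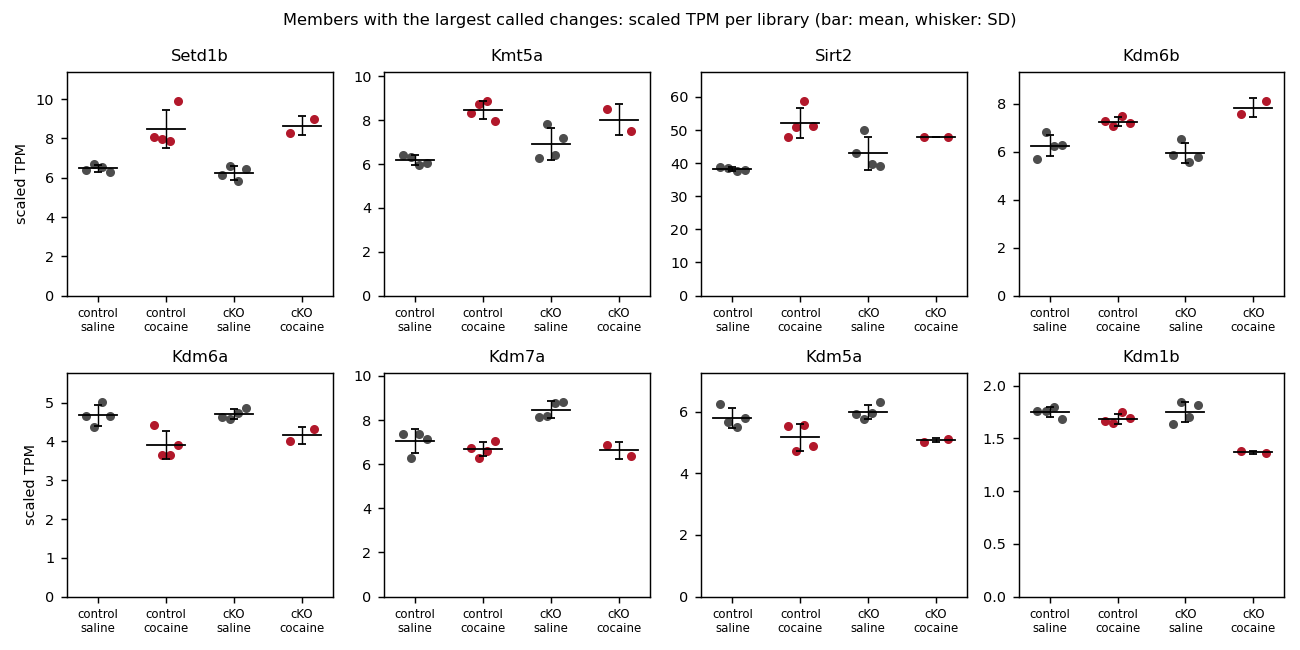
Scaled TPM in each library (points, grey saline and red cocaine) with the group mean and SD for the 4 genes with the largest called increase (top: Setd1b, Kmt5a, Sirt2, Kdm6b) and the 4 with the largest called decrease (bottom: Kdm6a, Kdm7a, Kdm5a, Kdm1b). The vertical axes start at 0. Setd1b and Kdm6b separate cocaine from saline in all libraries, and Kdm1b is lower in the libraries labelled cKO cocaine, at 1.38 and 1.36.

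Histone demethylases moved in both directions. Of 17 tested, 1 was higher and 5 were lower (all genes 17.8% and 15.3%), and the median was 0.02. The single increase and 1 decrease were the paralogs Kdm6b and Kdm6a, which remove methyl groups from H3K27. Kdm7a, given below, also acts on H3K27. Kdm6b (chr11:69398508-69413675, minus strand), known to be inducible in several cell types, was at 5.71, 6.80, 6.22 and 6.29 scaled TPM after saline and 7.26, 7.06, 7.50 and 7.19 after cocaine in control libraries, and 5.88, 6.54, 5.55 and 5.77 after saline and 7.57 and 8.10 after cocaine in cKO libraries. No cocaine library overlapped the saline libraries. It rose by 0.29 on the log2 scale (SE 0.045, adjusted p = 0.000473), and was called in control (0.20, adjusted p = 0.0234) and in cKO (0.37, adjusted p = 0.00346).

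Kdm6a (chrX:18162575-18279936, plus strand), its X-linked paralog, went the other way. Scaled TPM was 4.65, 4.38, 5.02 and 4.65 after saline and 4.41, 3.64, 3.64 and 3.92 after cocaine in control libraries, and 4.64, 4.57, 4.74 and 4.87 after saline and 4.00 and 4.31 after cocaine in cKO libraries. Only one cocaine library, in control, reached the range of the saline libraries. The log2 fold change was -0.20 (SE 0.048, adjusted p = 0.00732), with -0.23 in control (adjusted p = 0.0145) and -0.16 in cKO (adjusted p = 0.149). Kdm6a shares sequence with the Y-linked Uty, which is no member of the set and which fell by 0.31 (adjusted p = 0.00267). Reads of both could have been split between them in the quantification.

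Kdm7a (chr6:39136623-39206789, minus strand), which removes the repressive marks H3K9me2 and H3K27me2, was called lower in the libraries labelled cKO and not in those labelled control. The values were 7.39, 6.26, 7.38 and 7.13 scaled TPM after saline and 6.75, 6.29, 6.61 and 7.05 after cocaine in control libraries, and 8.14, 8.17, 8.77 and 8.82 after saline and 6.88 and 6.36 after cocaine in cKO libraries. The 4 cKO saline libraries stood above all other libraries. Its log2 fold change over both genotypes was -0.20 (SE 0.045, adjusted p = 0.00461), made up of -0.07 in control (adjusted p = 0.4) and -0.33 in cKO (adjusted p = 0.00636). After saline, cKO minus control was 0.25 and missed the threshold (adjusted p = 0.0783), as did the difference between the cocaine effects (-0.26, adjusted p = 0.148).

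The demethylases of H3K4 are Kdm1a, Kdm1b and the 4 Kdm5 genes, a grouping made after the values were seen. Of these 6 genes, 2 were lower and 0 higher, with a median of -0.06. Among all genes 15.3% were lower and 17.8% higher, with a median of 0.01. Kdm5a (chr6:120364124-120444574, plus strand) was at 6.27, 5.66, 5.52 and 5.79 scaled TPM after saline and 5.55, 4.72, 5.56 and 4.89 after cocaine in control libraries, and 5.94, 5.76, 5.96 and 6.32 after saline and 5.03 and 5.12 after cocaine in cKO libraries. It fell by 0.19 (SE 0.046, adjusted p = 0.00817). Kdm1b (chr13:47043499-47085279, plus strand), the flavin-dependent enzyme better known from oocytes, was low throughout, at 1.76, 1.76, 1.79 and 1.68 after saline and 1.66, 1.64, 1.75 and 1.69 after cocaine in control libraries, and 1.64, 1.84, 1.70 and 1.82 after saline and 1.38 and 1.36 after cocaine in cKO libraries. It fell by 0.15 (SE 0.048, adjusted p = 0.026), with an effect of -0.27 in cKO (adjusted p = 0.0244) and -0.04 in control (adjusted p = 0.655). Its main relative in neurons, Kdm1a (also known as LSD1), was at group means of 14.8 to 15.5 and was not called (0.06, 95% interval -0.02 to 0.14).

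Kdm4c, an H3K9 demethylase, fell by 0.15 (SE 0.051, adjusted p = 0.0395), a call that held in 4 of 14 fits that each left out a single library. The X-linked Kdm5c was not called (0.08, adjusted p = 0.0747), and neither was its Y-linked relative Kdm5d (-0.13, adjusted p = 0.0543), which was present in all libraries at 3.88 to 4.84 scaled TPM. The remaining 8 demethylases had values of at most 0.15 in either direction and none was called.

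Among acetyltransferases 4 of 8 were higher and 0 lower (all genes 17.8% and 15.3%), with a median of 0.12. Kat5, the catalytic subunit of the TIP60 complex, was at 15.7 to 17.9 scaled TPM in saline and 17.9 to 21.6 in cocaine libraries. It rose by 0.21 (SE 0.049, adjusted p = 0.0055) and was called in control (0.18, adjusted p = 0.0496) and in cKO (0.24, adjusted p = 0.0403). Of the 14 fits that each left out a single library, 13 kept the call over both genotypes, 5 that in control and 8 that in cKO, where the value was 0.13 without cKO cocaine replicate 2. Kat2a, the H3K9 acetyltransferase of the SAGA complex, rose by 0.16 (SE 0.041, adjusted p = 0.0115), from 10.1 to 11.6 in saline to 11.4 to 12.9 in cocaine libraries. Kat6a rose by 0.15 (adjusted p = 0.00336) and Kat8, the H4K16 acetyltransferase, by 0.16 (adjusted p = 0.0337), a call that held in 6 of 14 such fits. Kat2b, the close paralog of Kat2a, was at -0.05 (adjusted p = 0.493).

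Among deacetylases the class I enzymes Hdac1, Hdac2, Hdac3 and Hdac8 gave 0 calls (all genes 17.8% higher and 15.3% lower). Their values lay between -0.08 and 0.11. At an unadjusted p under 0.05 (limma) 0 of them passed, and 5784 of all 13471 tested genes. With the trend with GC content and transcript length removed Hdac8 was called higher, at 0.23 (adjusted p = 0.0291). For Hdac3 the 95% interval was -0.07 to 0.12, and for Hdac2 its upper end lay at 0.00 and its lower end at -0.16. The class II and IV enzymes gave 2 increases and 0 decreases among 6. Hdac5 (chr11:102194432-102230166, minus strand), a class IIa enzyme that shuttles out of the nucleus when neurons are active, had the smallest adjusted p of all members. Its scaled TPM was 48.5, 49.8, 47.5 and 48.1 after saline and 58.2, 56.9, 56.7 and 60.7 after cocaine in control libraries, and 46.3, 49.8, 45.8 and 46.3 after saline and 56.7 and 59.6 after cocaine in cKO libraries. A gap of several TPM parted the lowest cocaine from the highest saline library. The log2 fold change was 0.28 (SE 0.029, adjusted p = 2.61e-05), an increase of 21.5%, with 0.26 in control and 0.30 in cKO.

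Hdac4, also class IIa, rose by 0.12 (SE 0.041, adjusted p = 0.0428). This call held in 2 of 14 fits that each left out a single library and in 5 of 12 other settings, and the value was 0.05 without cKO cocaine replicate 2. It was called in control (0.20, adjusted p = 0.0137), where saline libraries lay at 7.48 to 7.63 and cocaine libraries at 8.29 to 9.15, and was at 0.03 in cKO, whose cocaine libraries were at 7.09 and 8.59. Hdac9, the third abundant class IIa enzyme, was not called (0.09, adjusted p = 0.251), nor was Hdac11 (0.09, adjusted p = 0.093).

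Of the 7 sirtuins, which need NAD to remove acyl groups, 2 were higher and 0 lower (all genes 17.8% and 15.3%), with a median of 0.17. Sirt2 (chr7:28766735-28788661, plus strand) was at 39.0, 38.7, 37.6 and 37.8 scaled TPM after saline and 48.0, 51.0, 58.7 and 51.1 after cocaine in control libraries, and 43.1, 50.0, 39.8 and 39.2 after saline and 47.9 and 48.0 after cocaine in cKO libraries. All control cocaine libraries exceeded all control saline libraries, while one cKO saline library lay above both cKO cocaine libraries. The log2 fold change was 0.30 (SE 0.058, adjusted p = 0.00175), with 0.44 in control (adjusted p = 0.00133) and 0.16 in cKO (adjusted p = 0.227). The difference between these effects was not called (adjusted p = 0.223).

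Sirt2 is a myelin-associated gene in brain, and the levels of 4 oligodendrocyte genes, Mbp, Mog, Mag and Cnp, are given beside it. Their summed level in control libraries was 928 to 1079 scaled TPM after saline and 1015 to 1571 after cocaine, and in cKO libraries 1118 to 1540.3 after saline and 1254 to 1285 after cocaine. Their median log2 fold change was 0.31 in control, with 1 of 4 called, and -0.18 in cKO, with 0 called. The part of oligodendrocyte content in the Sirt2 values was not tested. The mitochondrial deacetylase Sirt3 rose by 0.20 (SE 0.060, adjusted p = 0.0206). Sirt1, the nuclear founding member of the family, had a negative value that missed the threshold (-0.18, adjusted p = 0.0531).

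For DNA methylation, Dnmt1, the maintenance methyltransferase, was higher over both genotypes (0.19, SE 0.062, adjusted p = 0.0305). Saline libraries lay between 7.91 and 8.91 scaled TPM. The control cocaine libraries spread over 7.90, 7.89, 9.64 and 10.3, and the cKO cocaine libraries were at 10.3 and 10.9. The call over both genotypes held in 7 of 14 fits that each left out a single library. It was made in cKO (0.30, adjusted p = 0.0415) and not in control (0.08, adjusted p = 0.486). Dnmt3a, the de novo enzyme, was not called (-0.06, 95% interval -0.17 to 0.05). Among the Tet enzymes Tet3 rose by 0.12 (SE 0.037, adjusted p = 0.0277), with 5.73 to 6.39 in saline and 6.34 to 7.13 in cocaine libraries (8 of 14 such fits), and Tet1 and Tet2 were at -0.06 and 0.02.

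By labelled genotype, 12 members were higher and 1 lower after cocaine in control, where 14.2% and 10.2% of all genes were called. In cKO 9 were higher and 3 lower, where 10.2% and 9.96% of all genes were called. Called higher in both were Hdac5, Kat5 (at the threshold), Kdm6b and Setd1b, and called lower in both was no member. The sign was positive in both genotypes for 32 members, negative in both for 11 and opposite for 20. The cKO counts changed with single libraries. Fewer members were called higher in cKO without cKO saline replicate 1, 3 or 4. Without cKO cocaine replicate 2, fewer members were called in cKO and over both genotypes. Fewer of all tested genes were called there too. In that setting the remaining cKO cocaine library was assumed to vary like the other groups. Hdac5 was the only member called higher in cKO in every fit that left out a single library.

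**Figure D3:**
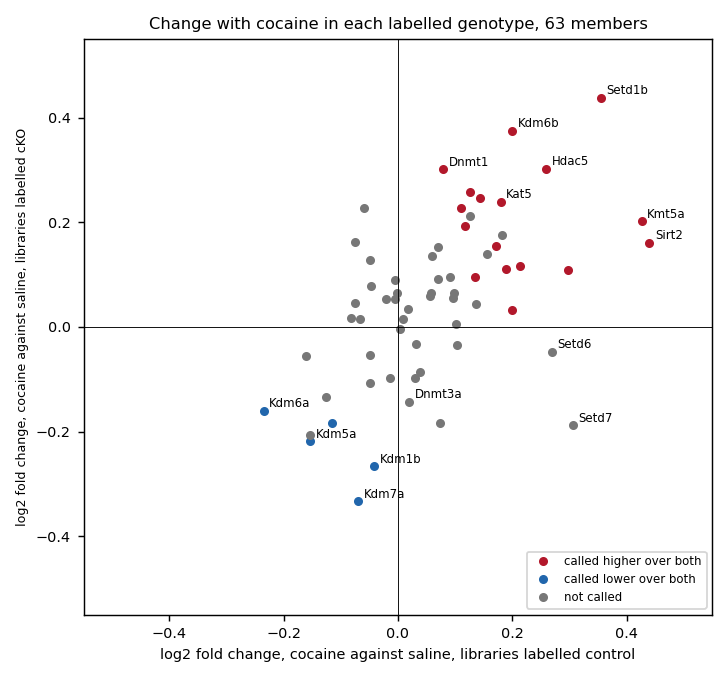
Log2 fold change of cocaine against saline in the libraries labelled control (horizontal) and cKO (vertical) for the 63 tested genes, coloured by the call over both genotypes. Setd1b, Kdm6b, Hdac5 and Kat5 lie in the upper right, and Setd7 lies in the lower right, at 0.31 and -0.19.

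Comparing genotypes directly gave 0 members called after saline (5 at an unadjusted p under 0.05, limma) and 0 after cocaine (6 unadjusted). Of all 13471 tested genes, 2256 after saline and 1597 after cocaine passed the same unadjusted cut. Few genes were called in all: 0.0668% higher and 0.111% lower after saline, and 0.0223% and 0.0371% after cocaine. The difference between the cocaine effects, cKO minus control, gave 1 member lower and 0 higher, against 0.668% and 0.616% of all genes. At the unadjusted cut 6 members passed, and 2437 of all 13471 tested genes.

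That member was Setd7 (chr3:51515319-51560879, minus strand), a monomethyltransferase of H3K4 and of many other proteins. Scaled TPM was 29.3, 24.4, 28.6 and 29.5 after saline and 33.5, 32.1, 35.3 and 37.5 after cocaine in control libraries, and 37.6, 35.1, 35.0 and 31.6 after saline and 30.0 and 30.9 after cocaine in cKO libraries. Cocaine libraries were above saline libraries in control and below them in cKO. The effect was 0.31 in control (SE 0.069, adjusted p = 0.00733) and -0.19 in cKO (SE 0.085, adjusted p = 0.138), and the difference was -0.49 (SE 0.11, adjusted p = 0.0489). The opposite directions turn on the genotype labels of the cocaine libraries, which Maged1 went against: the group means were 27.9 in control saline, 30.5 in cKO cocaine, 34.8 in cKO saline and 34.6 in control cocaine. The call sat at the threshold: it held in 3 of 14 fits that each left out a single library, in which the difference ran from -0.54 to -0.43. The median difference of the 4 oligodendrocyte genes was -0.49, with 0 of 4 called, and their part in the Setd7 values was not tested.

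**Figure D4:**
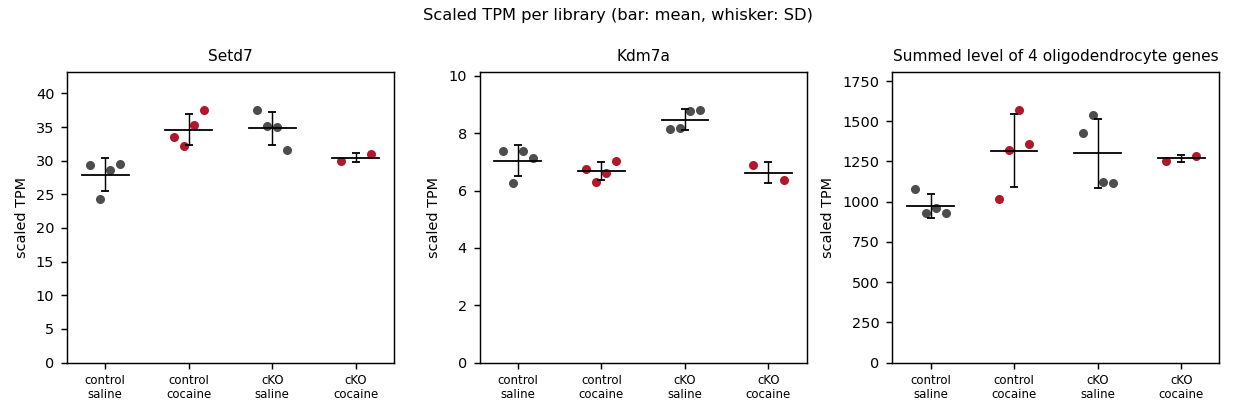
Scaled TPM per library (points, with group mean and SD) for Setd7, Kdm7a and the sum of the 4 oligodendrocyte genes Mbp, Mog, Mag and Cnp. Setd7 and the oligodendrocyte sum have their lowest group mean in control saline, and Kdm7a has its highest in cKO saline, where all 4 libraries exceed 8 scaled TPM.

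Members called higher had, at the median, a higher transcript GC content than those called lower. The longest annotated transcript of the 17 genes called higher had a median GC content of 54.2% (45.9% to 59.8%), against 43.3% (39.6% to 44.4%) for the 5 called lower and 50.0% for the 41 not called. Setd1b, Kdm6b and Hdac5 were at 59.0%, 59.6% and 59.8%, and Kdm7a at 39.6%. The same relation ran through all tested genes: those below 40% GC had a median log2 fold change of -0.19, those from 45% to 50% of -0.02 and those from 55% to 60% of 0.11. Across genes, which are not independent replicates and share the same libraries, Spearman's rho between log2 fold change and GC content was 0.508 for all genes and 0.578 for the 63 members.

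When the trend with GC content and transcript length was removed within each library, 13 members were higher and 0 lower over both genotypes (11.7% and 8.47% of all genes). Of the 17 increases, 9 were still called: Setd1b, Kmt5a, Sirt2, Kdm6b, Hdac5, Sirt3, Kmt2d, Kmt2e and Kat6a. Several of these values were smaller than before. Kmt2d was at 0.09 against 0.19 and Hdac5 at 0.16 against 0.28. Kdm6b was at 0.17 against 0.29 and Setd1b at 0.28 against 0.40. Kmt5a was at 0.29. None of the 5 decreases was called, with Kdm7a at -0.04 against -0.20. The other 4 called higher were Hdac8 (0.23), Hdac9 (0.16), Setd2 (0.11) and Kat6b (0.10), none of which was called before. Whether the relation with GC content has a technical or a biological source was not tested.

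**Figure D5:**
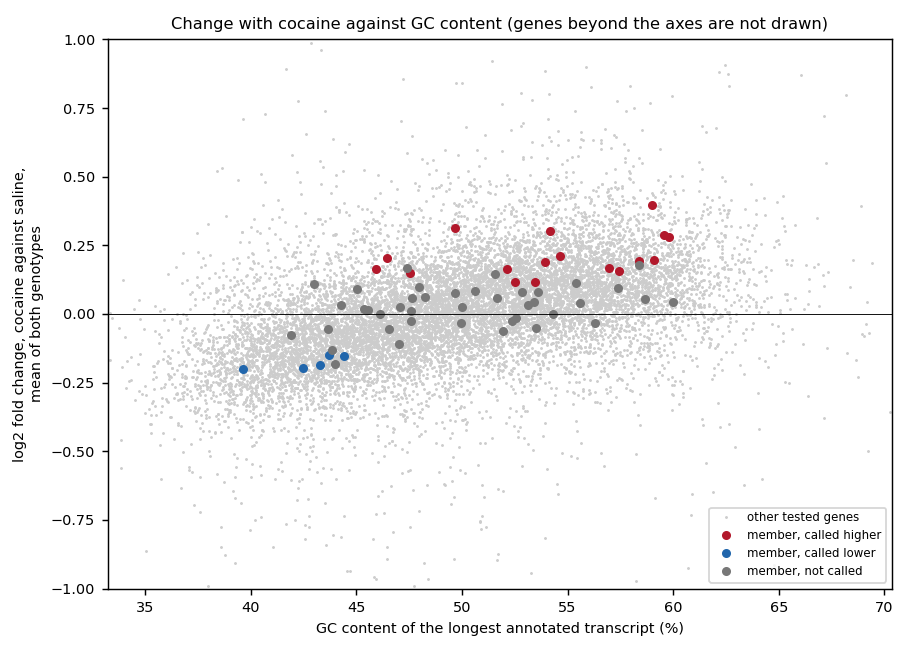
Log2 fold change of cocaine against saline over both genotypes against the GC content of the longest annotated transcript, for all tested genes with an annotated transcript (light grey) and for members (red higher, blue lower, dark grey not called). The 5 members called lower lie at 44.4% GC or less and the 17 called higher at 45.9% or more.

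Lists of other writers, erasers and their partners, which the symbol rule did not take in, held 56 genes. Of these 55 were tested, and 19 were higher and 4 lower over both genotypes, where 17.8% and 15.3% of all genes were called. Other writers were split 8 higher to 2 lower of 25. The largest increases were in the coactivators Crebbp (0.38, adjusted p = 4.59e-05), an acetyltransferase that binds CREB, and Carm1 (0.37, adjusted p = 0.000607), an arginine methyltransferase. Ep300, the paralog of Crebbp, rose by 0.16 (adjusted p = 0.00204). Partner proteins gave 7 higher and 0 lower of 20, among them Mta1 of the NuRD complex (0.26, adjusted p = 8.74e-05) and Men1, a subunit of Kmt2 complexes (0.19, adjusted p = 0.00246). Other erasers gave 2 higher and 1 lower of 6, and readers of methylated DNA 2 higher and 1 lower of 4. No gene of these lists was called between genotypes or for the difference of the cocaine effects.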

How the data were processed

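RNA of unsorted whole thalamus was depleted of ribosomal RNA and sequenced as directional paired-end libraries. The authors aligned reads with STAR 2.5.3a to GRCm38.p4 (mm10), quantified transcripts with salmon and deposited gene TPM, as 1 table per library. In 2 of the 14 deposited tables, read here as the same TPM, a decimal comma replaced the point and the values are recorded as another unit. No counts were used, so depth per gene is unknown and no counting interval is given. Listed TPM summed to between 312659 and 377401 per library.

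TPM was divided by trimmed mean factors (30% and 5% trims) set on genes of at least 1 TPM in at least 3 libraries. Log2(TPM + 0.5) of the scaled values was fitted with limma 3.58.1 (R 4.3.3) as 4 group means with an intensity trend, and p-values were adjusted over 13471 genes. Fold changes on this scale understate changes of low genes. Samples are separate animals only as far as the labels say independent replicates. Groups follow the titles. On data drawn with known changes, 63 of 100 genes changed by 0.3 on the log2 scale and 94 of 100 changed by 1 were recovered for the comparison over both genotypes, with 7 other calls among 13261 genes. The drawn data had independent noise for each gene, no trend with GC content and no difference in scaling between treatments. They therefore do not give the error rate in the measured data.

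The members, gene lists and the naming rule were chosen with earlier results of these data known. Named were the highest gene of each class, up to 4 called genes a direction over both genotypes and 3 in each other contrast, sex-linked members, 13 members often studied in drug reward and those under the filter. Kmt2a to Kmt2e, Setd1a, Setd2, Kat6a, Kat6b, Kat8, Kat2b, Sirt3, Kdm4c, Hdac1, Hdac8, Tet2, Uty and the genes of the partner lists were named after their values were seen. Coordinates and transcripts come from GENCODE M21, promoters from RefSeq (GRCm38.p6, 51 of 63 tested members matched). Alternatives covered scaling, filter, pseudocount, fold minimum, trend, replicate block, genotype tag, GC content and leaving out each library. Some genes of the partner, reader and marker lists are not reported here.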

Additional observations from a re-analysis of the deposited data

Results flagged for a closer look

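Within a group of 4 libraries, a single library can stand far from the others. Of 78 such groups of named members examined, 4 held one, and chance alone flags about 1 in 20. Setd1b was at 9.90 scaled TPM in control cocaine replicate 4, where the other three libraries lay between 7.88 and 8.09. In the same library Hdac2 was low, at 19.0 against 20.3 to 20.5. Hdac5 was at 49.8 in cKO saline replicate 2 against 45.8 to 46.3, and Dnmt3a was at 12.3 in that library against 10.8 to 11.0. Setd1b and Hdac5 kept their calls over both genotypes in all 14 fits that left out a single library.

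Setd7 had opposite effects of cocaine in the labelled genotypes, 0.31 in control and -0.19 in cKO on the log2 scale, and the test of the difference gave -0.49 (limma, adjusted p = 0.0489). Both effects and their difference turn on the genotype labels of the cocaine libraries, which the Maged1 levels went against.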

How the results depend on the processing

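Members called higher and lower after cocaine numbered 17 and 5 over both genotypes, 12 and 1 in control, and 9 and 3 in cKO, and 1 (Setd7) was called lower for the difference of the cocaine effects. On TPM as deposited these counts were 0 and 55, 0 and 48, 0 and 42, and 0. All 13471 tested genes gave 120 and 10661, 112 and 9515, 107 and 8124, and 8. With a fold minimum of 0.5 the member counts were all 0. The counts of all tested genes at that minimum are not given, so these zeros cannot be set against them. With library sums equal over genes with long transcripts, chosen after seeing the data, the member counts were 9 and 8, 6 and 3, 5 and 3, and 1. All tested genes gave 1526 and 2961, 1191 and 2339, 1025 and 1786, and 77. With GC content and length trends removed, 13 and 0 members were called over both genotypes, 8 and 0 in control, 4 and 0 in cKO, and 0 for the difference. The 13186 genes tested there gave 1542 and 1117, 1495 and 1003, 719 and 496, and 73.

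With the replicate number as a block the counts were 15 and 3 over both genotypes, 10 and 1 in control, 5 and 1 in cKO, and 0 for the difference. All tested genes gave 2144 and 1843, 1657 and 1164, 1020 and 946, and 15 lower for the difference. The replicate numbers did not pair the samples: deviations of same-numbered samples had a mean correlation of -0.014 over 18 pairs, against 0.0046 over 54 other pairs. Among genes with a mean of at least 5 TPM, where fewer members are tested, lower calls were 3, 0 and 1 in the order given. The 8369 genes tested there gave 1502, 943 and 1188. With only the compared groups in the fit, control had 0 lower calls (all genes 1060) and cKO 5 higher (all genes 1065). Genotypes taken from the tag left 1 lower call in cKO (all genes 921). The Setd7 call was lost (0) with quantile normalization, with no filter, with no intensity trend and with the tag; the cause was not tested.

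Leaving out 1 library at a time gave 9 to 18 higher and 3 to 6 lower over both genotypes, 9 to 12 and 1 to 3 in control, 1 to 9 and 0 to 3 in cKO, and 0 to 1 for the difference. The lowest counts over both genotypes and in cKO came without cKO cocaine replicate 2, and 3 lower calls in control without control cocaine replicate 1. All tested genes also had their fewest calls in the former fit, and their most lower calls in control (1626) in the latter. In cKO, higher calls were 5, 4 and 4 without cKO saline replicates 1, 3 and 4, and lower calls were 1 without replicates 2 and 4. All tested genes gave 1071, 1052 and 1145 higher calls there, and 1218 and 1118 lower calls. How many of all tested genes were called in every fit that left out a library is not given. In every such fit over both genotypes 7 members were called higher (Kmt2d, Hdac5, Setd1b, Kmt5a, Sirt2, Kdm6b and Kat6a) and 3 lower (Kdm7a, Kdm5a and Kdm6a). On TPM as deposited, 16 of the 17 increases had a negative value and 12 were called lower: Kmt2d (-0.18), Kat5 (-0.16), Kat2a (-0.21), Tet3 (-0.24), Hdac4 (-0.24), Dnmt1 (-0.17), Setd1a (-0.19), Kmt2b (-0.17), Kmt2e (-0.20), Sirt3 (-0.17), Kat6a (-0.21) and Kat8 (-0.19). Genotype comparisons within a treatment gave 0 calls in every setting run. TPM carry no depth, so low members such as Kdm1b could not be judged for counting error.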
